A study of Homo sapiens with 2 samples.

Results

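The genes described here are 33 members of the p53 pathway, listed as p53 feedback regulators and transcriptional targets. The list was chosen with earlier results of these data known. A gene was represented by probe sets whose platform symbol was exactly its own, and where it had several by the brightest, judged by its mean log2 signal. Of the 33 genes, 31 had such a probe set among 19775 genes on the array, and 29 reached the signal filter, against 12561 of all genes. The filter was the median of the mean log2 signal over all non-control probe sets, which equals a linear signal of 50.4. BTG2 and FDXR had no probe set with their own symbol and were not analysed here, and EDA2R and SPATA18 lay under the filter.

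The cells were HCT116, an established human colorectal carcinoma line. The control group was transfected with a control siRNA. The other group received siRNAs directed at both JMJD1A (KDM3A) and JMJD1B (KDM3B), demethylases of lysine 9 of histone H3. RNA of both was taken 2 days after transfection, and the siRNA sequences are not given in the sources used here. With a single array in each group, replicate error could not be estimated and nothing was tested, so each difference is one between these samples. All ratios are log2 of the JMJD1A/JMJD1B siRNA array over the control array.

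The tumour suppressor p53 is a transcription factor that is kept low by the ubiquitin ligase MDM2 and its partner MDM4. When DNA damage or other stress releases it from them, p53 binds paired decamer elements near its target genes and raises the transcription of genes that halt the cell cycle, repair DNA, change metabolism or start cell death. MDM2 is itself a target, which closes a feedback loop. No protein level and no binding to DNA was measured.

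Transcript levels are those of whole cultures, in which fewer cells of a type and less RNA per cell cannot be told apart. Of 12 colon epithelial markers 9 were above the filter, with summed signals of 79169.5 (control) and 121871. EPCAM read 13794 and 19809 and KRT18 27324 and 33559. KRT19 and CDH1 were at least 2-fold higher on the deposited scale, and KRT20 (-0.99) and CDX2 (-0.46) read lower. CEACAM5 was also past 2-fold on the higher side, but it was dim, at 38.9 (control) and 94.6. It was under the filter signal of 50.4 on the control array and passed only through the other. CDX1, CDH17 and LGALS4 lay under the filter. Of the markers of other cell types, 2 of 9 fibroblast, 3 of 10 leukocyte and 1 of 7 endothelial genes lay above it. Their summed signals on the control and JMJD1A/JMJD1B siRNA arrays were 363 and 698, 196 and 241, and 116 and 158. The defining leukocyte gene PTPRC read 8.22 and 12.4, the endothelial CDH5 3.91 and 49.5, and the fibroblast COL3A1 34.2 and 30.5, all under the filter. The measured fibroblast genes both read higher with the JMJD1A/JMJD1B siRNAs, COL1A1 at 324 and 631 (0.96) and DCN at 39.1 and 67.3 (0.78). DCN too passed the filter only through the JMJD1A/JMJD1B siRNA array. Of the siRNA targets, KDM3B read 3031 on the control array and 496 on the other, 16.4% of control. KDM3A read 3884 and 3323, 85.6% of control, a ratio of -0.22 that is under the probe-set SD given below and would be -0.84 with the hybridization controls level. A lower KDM3A transcript was thus not shown on the deposited scale. The family member JMJD1C, which was not targeted, read 1462 and 1873. The part of the marker differences in the values below was not tested.

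The scale of the arrays bears on every direction given here. As deposited, both arrays had the same trimmed mean, and on that scale the median ratio of all measured genes was 0.04. The 18 hybridization controls, bacterial and phage transcripts added at fixed amounts, all gave more signal with the JMJD1A/JMJD1B siRNAs, with a median ratio of 0.61. With the arrays set level on these controls, every ratio falls by 0.61 and the median of all genes would be -0.57. Ratios are on the deposited scale unless said otherwise. A spread between samples cannot be had, so differences are read against the SD of 0.53 in the log2 ratio of a single probe set. This SD comes from the 2 brightest probe sets of each of 6192 genes on these same arrays. Differences between cultures or arrays that move both probe sets alike are not in it. It measures disagreement between probe sets and does not stand in for a spread between samples.

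On the deposited scale 6 of the 29 measured p53 pathway genes were at least 2-fold higher with the JMJD1A/JMJD1B siRNAs, namely SERTAD1, CCNG2, PLK2, GDF15, CCNG1 and SESN1, and 2 were at least 2-fold lower, TIGAR and DRAM1. These counts are 20.7% and 6.90% of the measured members. The background over the 12561 genes was 8.91% on the higher side and 8.53% on the lower. As the list was chosen with earlier results of these data known, its shares only describe these arrays and give no support for a difference from all genes. The median ratio of the 29 genes was 0.31, with 17 above 0 and 12 below, and it turned to -0.30 with the hybridization controls level. For 16 of the 29 the ratio was smaller than the probe-set SD. With a threshold of 1.5-fold, 10 were higher and 3 lower (21.7% and 19.5% of all genes), and with 3-fold 2 were higher and none lower (2.28% and 2.26% of all genes). The list thus held members that stood far apart in ratio, and SERTAD1 and TIGAR had opposite signs on every scale tried. The shift of 0.61 from levelling the hybridization controls was too small to turn either sign.

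**Figure D1:**
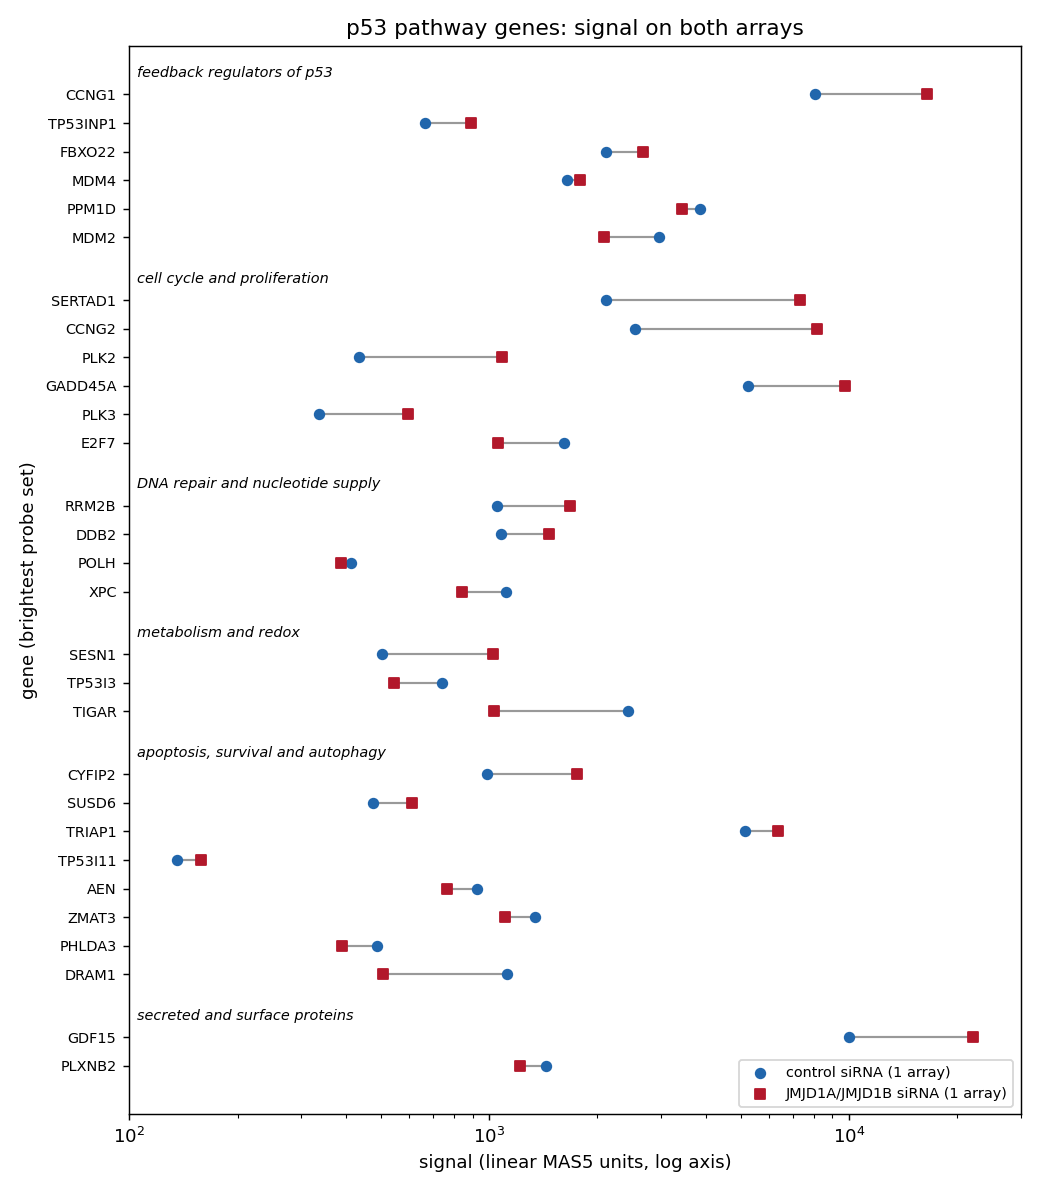
Signal of the 29 measured p53 pathway genes on the control array (blue circles) and the JMJD1A/JMJD1B siRNA array (red squares), 1 array each, on a log axis in linear MAS5 units, grouped by role and joined by a grey line per gene. In the cell cycle group 5 of 6 genes have the red square to the right on the deposited scale, and the longest lines toward lower signal are those of TIGAR and DRAM1.

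Promoter sequences are shown for the members that differed at least 2-fold and in one direction by every measured probe set, and for the one whose promoter entry held a full p53 element. They come from RefSeq (GRCh38.p14), which held entries for 28 of the 33 members in 41 windows of 250 bases before to 50 bases after a start site, and are written 5′ to 3′ along the gene. No entry was found for FBXO22, TP53INP1, GADD45A, RRM2B and PHLDA3. Capitals mark matches to a p53 decamer (the p53 element consists of a pair of them), to ACGTG, which is the core of hypoxia-inducible factor sites and overlaps the E-box CACGTG, to the forkhead motif GTAAACA, or to TATAAA. Stretches without capitals hold none of them. The first group gives the 150 bases before the start site.
SERTAD1, chr19:40425993-40426142, minus strand: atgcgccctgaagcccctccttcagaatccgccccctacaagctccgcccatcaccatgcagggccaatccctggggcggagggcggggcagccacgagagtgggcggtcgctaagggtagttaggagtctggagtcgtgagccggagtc
PLK2, chr5:58460087-58460236, minus strand: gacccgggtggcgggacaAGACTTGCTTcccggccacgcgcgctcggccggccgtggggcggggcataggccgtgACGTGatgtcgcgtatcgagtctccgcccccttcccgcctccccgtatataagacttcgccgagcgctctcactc
GDF15, chr19:18386008-18386157, plus strand: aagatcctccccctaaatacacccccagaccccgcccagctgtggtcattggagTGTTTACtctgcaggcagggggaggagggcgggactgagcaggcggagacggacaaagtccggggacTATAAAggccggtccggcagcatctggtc
CCNG1, chr5:163437421-163437570, plus strand: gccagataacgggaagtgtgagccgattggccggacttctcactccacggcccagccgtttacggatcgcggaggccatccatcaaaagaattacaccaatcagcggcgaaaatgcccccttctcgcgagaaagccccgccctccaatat
TIGAR, chr12:4321063-4321212, plus strand: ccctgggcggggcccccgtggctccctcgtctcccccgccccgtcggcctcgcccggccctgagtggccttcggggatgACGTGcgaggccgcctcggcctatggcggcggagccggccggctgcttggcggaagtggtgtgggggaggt
DRAM1, chr12:101877430-101877579, plus strand: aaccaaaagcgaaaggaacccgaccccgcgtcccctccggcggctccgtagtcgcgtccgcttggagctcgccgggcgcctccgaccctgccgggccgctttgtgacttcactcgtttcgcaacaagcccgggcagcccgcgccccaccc
The next lines give a p53 decamer with 10 bases on either side in the promoter entry of an internal SESN1 start site, and the full element of DDB2, shown because it is the only one in these windows.
SESN1, chr6:109009018-109009047, minus strand: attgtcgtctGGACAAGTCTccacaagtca
DDB2, chr11:47214979-47214999, plus strand: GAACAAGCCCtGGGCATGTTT

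The PLK2 decamer begins at position -132 from the start site and an ACGTG follows at -75. GDF15 has TATAAA at -29 and a forkhead match on the opposite strand at -96. In DDB2 the decamers begin at bases 6 and 17 of the transcript, with 1 base between them. Over both strands, p53 decamers were found in the windows of 5 of 28 members (17.9%), AEN, DDB2, FDXR, PLK2 and SESN1, and in 8.06% of all 27305 gene symbols in the promoter table. A full element, 2 decamers up to 13 bases apart, was found in DDB2 among the members and in 10 of all 35116 windows. ACGTG was found in 9 of 28 members (32.1%) and 24.9% of all symbols, CACGTG in AEN, CCNG2 and EDA2R (10.7% against 8.77%), and GTAAACA and TATAAA each in GDF15 only among the members (3.57%), against 4.19% and 14.0% of all symbols. These matches describe the letters in short windows, and many p53 elements are known to lie in introns or farther upstream.

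Among the members that regulate p53 itself, the ratios were small apart from CCNG1, and MDM2 was the lowest. MDM2, the ubiquitin ligase that marks p53 for degradation, read 2969 on the control array and 2087 on the other, a ratio of -0.51. Its 6 measured probe sets all read lower there, with ratios from -1.15 to -0.16. MDM4, which binds and inhibits p53 without degrading it, read 1644 and 1785, a ratio of 0.12 that would be -0.49 with the hybridization controls level. Its 6 measured probe sets went both ways, from -0.48 to 1.07, so no direction can be read for this gene.

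PPM1D, the phosphatase WIP1 that reverses damage signalling to p53, read 3861 and 3448 (-0.16), and its other probe set stood at -0.48. CCNG1, cyclin G1, which recruits a phosphatase to MDM2, read 8032 and 16509, 2.06-fold higher by its single probe set. That ratio of 1.04 lay just past 2-fold and was below it after median scaling, loess (0.76), quantile normalization (0.81) and levelling of the hybridization controls (0.43). FBXO22, part of a ubiquitin ligase that acts on methylated p53, read 2119 and 2673 (0.34, with 4 probe sets from -0.08), and TP53INP1, a nuclear protein that promotes p53 phosphorylation, read 663 and 893 (0.43). Both ratios are under the probe-set SD and would be below 0 with the hybridization controls level.

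The members that act on the cell cycle and proliferation held 3 of the 6 genes past 2-fold on the higher side, with a median ratio of 1.11 over 6 measured genes, or 0.50 with the hybridization controls level. That is 50% of these measured members, against 8.91% of all genes. As these are 6 genes of a list chosen with earlier results of these data known, the share only describes these arrays. With those controls level, 2 were at least 2-fold higher and 1 lower, where 2.15% and 27.7% of all genes were. SERTAD1, a CDK4-binding regulator of E2F activity, read 2111 on the control array and 7324 on the other. Its ratio of 1.79, a 3.47-fold difference by 1 probe set, was the highest of all 29 members and stood above that of 98.5% of measured genes. It stayed past 2-fold under 4 other scalings and 2 pseudocounts. With 1 bright probe set, the other filters and probe-set rules could not change its value, which also holds for PLK2, TIGAR and DRAM1.

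CCNG2, cyclin G2, an atypical cyclin that is raised as cells leave the cycle, read 2547 and 8156, 3.20-fold higher. Of its 5 measured probe sets, 4 were higher, with ratios from 0.97 to 1.68, and the dimmest read -0.32 (72.1 and 57.9). Cyclin G2 also stayed past 2-fold under those settings and with the mean of its probe sets (1.09), with a ratio of 1.07 with the hybridization controls level. It is also known as a target of forkhead factors, and its promoter entry held a CACGTG at -30 from the start site.

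PLK2, a polo-like kinase of the G1 and S phases, read 435 and 1087, 2.501-fold higher, with a single probe set. Of the scalings and pseudocounts only levelling of the hybridization controls took it under 2-fold, to 0.71. PLK3, its stress-responsive relative, read 338 and 595 (0.82) by its brightest probe set. The other measured probe sets of PLK3 read 0.72 and -0.72, so the gene was split between directions. GADD45A, a growth arrest gene that binds PCNA and activates stress kinases, read 5247 and 9779, a ratio of 0.90 (1.86-fold).

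E2F7, a repressor of E2F target genes, was the one measured member of this group that read lower, at 1616 and 1057 (-0.61). Its second probe set was also below 0, at -1.06. The cyclin-dependent kinase inhibitor CDKN1A, encoding p21 and kept outside the 33 genes, read 2743 and 8281, 3.02-fold higher. It would stand at 0.98 with the hybridization controls level, just under 2-fold.

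**Figure D2:**
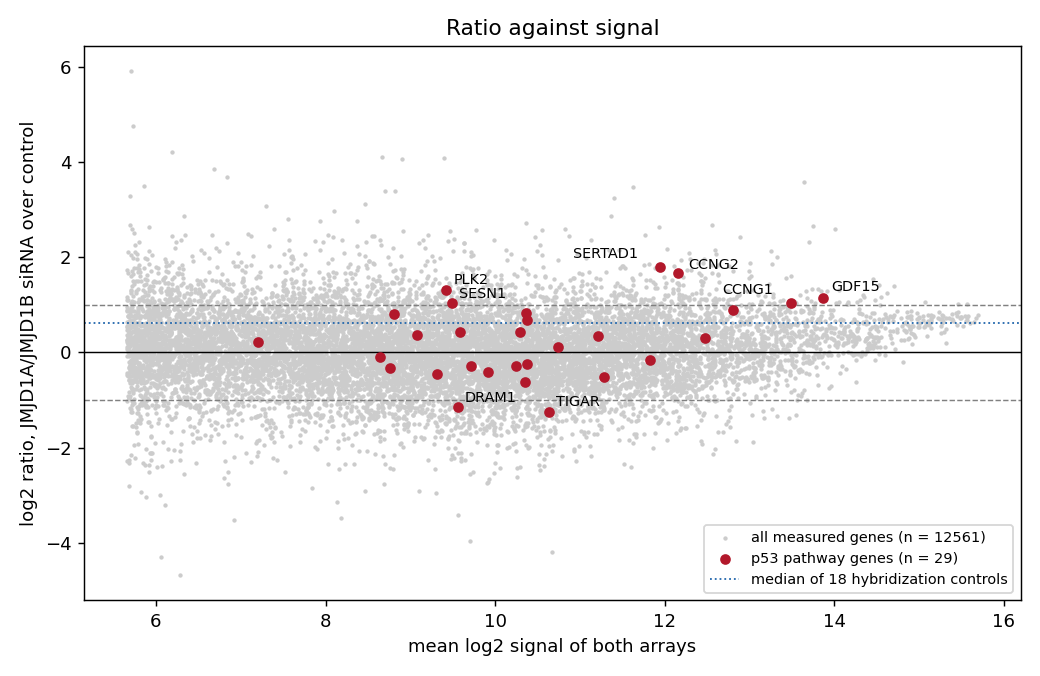
Log2 ratio of the JMJD1A/JMJD1B siRNA array over the control array against mean log2 signal, for 12561 measured genes (grey) and the 29 p53 pathway genes (red), with dashed lines at 2-fold and a dotted line at the median of the hybridization controls, 0.61. The 8 labelled genes lie past 2-fold on the deposited scale, and SERTAD1 and CCNG2 lie farthest above the dotted line.

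Members that repair DNA or supply nucleotides differed by less than 2-fold. DDB2, the damage sensor of nucleotide excision repair whose full p53 element is shown above, read 1083 and 1465 (0.44). XPC, its partner in damage recognition, read 1113 and 840 (-0.41). RRM2B, the p53-inducible subunit of ribonucleotide reductase, read 1051 and 1684, and its ratio of 0.68 was the only one of these 4 genes beyond the probe-set SD. On the scale of the hybridization controls RRM2B would stand at 0.07, DDB2 at -0.17 and XPC at -1.02. POLH, the polymerase that copies past ultraviolet damage, read 414 and 389 (-0.09), and its 6 measured probe sets ran from -0.95 to 0.90, with 3 in each direction.

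The metabolic members pointed in opposite directions. SESN1, a sestrin that restrains mTORC1 and limits oxidative stress, read 503 on the control array and 1027 on the other, 2.04-fold higher by 1 probe set. It was just short of 2-fold after median scaling (0.99) and with a pseudocount of 50 (0.96), and stood at 0.42 with the hybridization controls level. TIGAR, a fructose bisphosphatase that lowers glycolytic flux, read 2440 and 1030, 2.37-fold lower. Its ratio of -1.24 was the lowest of the 29 members, and only 5.07% of measured genes ranked as low or lower. TP53I3, a quinone oxidoreductase linked to oxidative stress, read 742 and 544 (-0.45), under the probe-set SD.

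Of the members tied to apoptosis, survival and autophagy, 8 were measured. None was at least 2-fold higher, where 8.91% of all genes were. DRAM1 was at least 2-fold lower (12.5% of these members, against 8.53% of all genes). With 8 genes, these counts cannot be told apart from the shares over all genes. DRAM1, a lysosomal membrane protein needed for p53-induced autophagy, read 1124 and 507, 2.22-fold lower by its single probe set. DRAM1 and TIGAR both stayed at least 2-fold lower under the 4 scalings and 2 pseudocounts, between -1.76 and -1.04 for DRAM1 and between -1.86 and -1.16 for TIGAR. Median scaling and levelling of the hybridization controls lower every ratio, so they could not have weakened these calls. Of the scalings, only loess and quantile normalization could have. ZMAT3, an RNA-binding zinc finger protein, read 1343 and 1105 (-0.28). Its 5 measured probe sets were all below 0, from -1.39 to -0.02, so they shared a direction and differed widely in size.

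CYFIP2, a p53-inducible part of the actin-regulating WAVE complex, read 990 and 1752 (0.82) by its brightest probe set and -0.25 by its other one. AEN, a nuclease of apoptotic DNA digestion, read 928 and 766 (-0.28). PHLDA3, which competes with AKT for membrane lipids, read 487 and 389 (-0.32), with its dimmer probe set at -0.06. The ratios of AEN and PHLDA3 were under the probe-set SD.

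TRIAP1, an inhibitor of apoptosis that works in mitochondrial lipid transfer, read 5139 and 6356 (0.31). SUSD6, a transmembrane protein also called DRAGO, read 476 and 612 (0.36), and TP53I11 read 136 and 159 (0.22) with another probe set at -0.60. These 3 ratios would be below 0 with the hybridization controls level. EDA2R, a receptor of the TNF receptor superfamily, read 18.7 and 21.9, and SPATA18, which acts in mitochondrial quality control, 28.3 and 8.05. Both lay under the filter on each array, so no fold is given for them.

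The secreted and surface members also differed from each other. GDF15, a stress-induced cytokine of the TGF-beta superfamily, read 10040 on the control array and 22177 on the other, 2.21-fold higher. Its 3 measured probe sets had ratios of 1.14, 0.55 and 1.53, all on the higher side. The probe set at 0.55 was dim (129 and 189). The one at 1.53 read 32.5 and 93.8, so it was under the filter signal of 50.4 on the control array and passed only through the other. The ratio of the brightest probe set, 1.14 as deposited, was under 2-fold after loess (0.80), quantile normalization (0.82) and levelling of the hybridization controls (0.53). PLXNB2, a semaphorin receptor, read 1439 and 1221 (-0.24), under the probe-set SD.

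**Figure D3:**
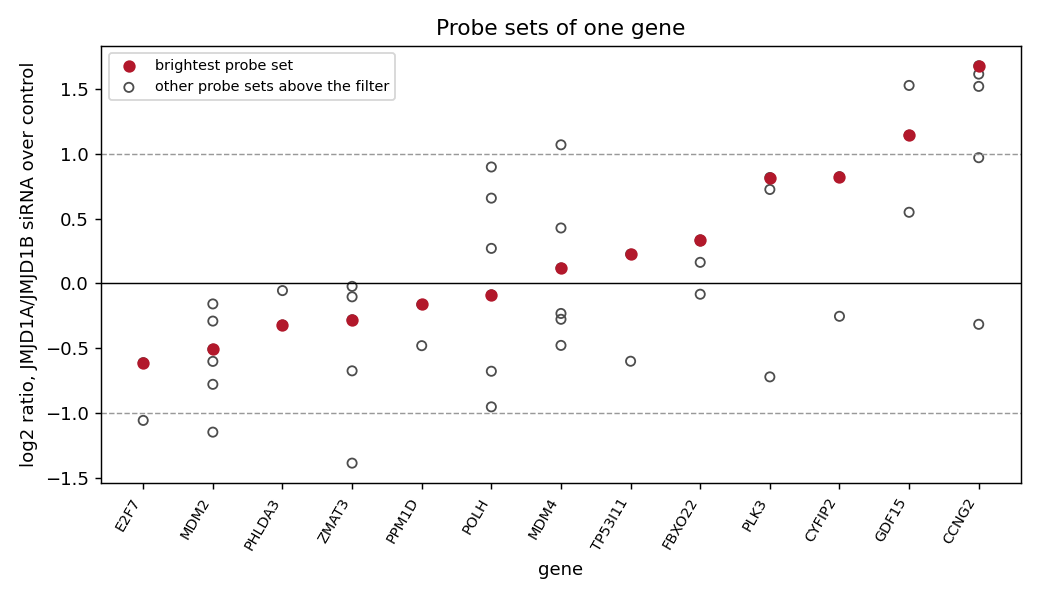
Log2 ratios of every probe set above the signal filter for the 13 p53 pathway genes with 2 or more, the brightest in red and the others as open circles, with dashed lines at 2-fold. All probe sets lie below 0 for MDM2, ZMAT3, PPM1D, PHLDA3 and E2F7 and above 0 for GDF15 on the deposited scale. Those of MDM4, POLH, PLK3, CYFIP2, CCNG2, FBXO22 and TP53I11 fall on both sides.

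The agreement between probe sets sets a limit on these readings. Of the 13 members with at least 2 measured probe sets, 6 had all of them in one direction (46.2%), against 3685 of 6192 genes overall (59.5%). The members held 64 measured probe sets, from 1 to 6 a gene. The median span between the lowest and the highest ratio of a gene was 0.99 in the members and 0.63 in all genes. Span and shared direction both depend on how many probe sets a gene has. From the 2 brightest probe sets of each gene, the SD of a single probe set was 0.36 in the members and 0.53 in all genes. Poorer agreement in the members was thus not shown. CCNG1, SERTAD1, PLK2, SESN1, TIGAR and DRAM1 each had 1 probe set, so their ratios have no second reading on the array.

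The scaling decided how many members passed 2-fold. Level on the hybridization controls, 2 members, SERTAD1 and CCNG2, were at least 2-fold higher, where 2.15% of all genes were. On that scale 6 were at least 2-fold lower, namely TIGAR, DRAM1, E2F7 (-1.22), MDM2 (-1.12), TP53I3 (-1.06) and XPC, where 27.7% of all genes were. The sign of 7 members would turn from above to below 0, and 10 of the 29 would remain above 0. Just inside the 2-fold threshold stood SESN1 at 1.03 and CCNG1 at 1.04, and just outside it GADD45A at 0.90. On the lower side DRAM1 stood inside at -1.15 and E2F7 outside at -0.61.

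**Figure D4:**
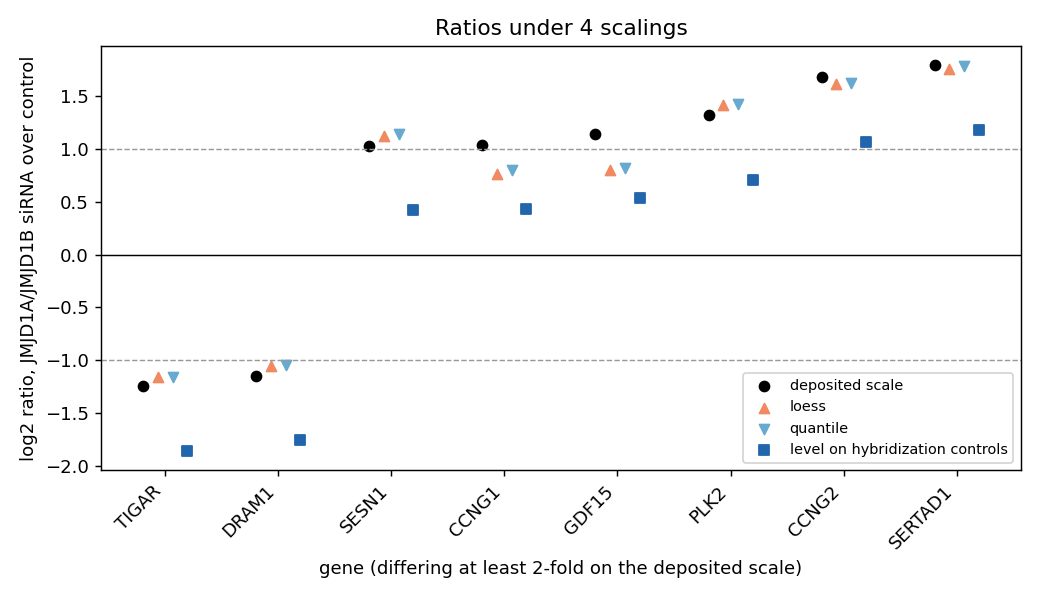
Log2 ratio of the 8 p53 pathway genes past 2-fold under the deposited scale (black circles), loess (orange triangles), quantile normalization (light blue triangles) and with the arrays level on the hybridization controls (blue squares), with dashed lines at 2-fold. SERTAD1 and CCNG2 stay above 1 and TIGAR and DRAM1 below -1 on all 4 scales, while SESN1, CCNG1, GDF15 and PLK2 cross 2-fold on at least 1.

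Other genes of the pathway were taken from 2 further lists, also chosen with earlier results of these data known. Their shares are likewise a description only. Of 42 other p53 target genes 38 were measured, 8 were at least 2-fold higher (21.1%, against 8.91% of all genes) and none was at least 2-fold lower (8.53% of all genes). Their median ratio was 0.31, as in the members, or -0.30 with the hybridization controls level. Besides CDKN1A they were TNFRSF10D, a decoy receptor for the death ligand TRAIL (2925 and 10714, 3.66-fold), ANKRA2 (704 and 2129, 3.03-fold), ARHGEF3 (888 and 2665, ratio 1.59), STEAP3, an iron reductase (581 and 1580, 2.72-fold), BTG1, an antiproliferative gene (1952 and 4764, 2.44-fold), PERP, a desmosomal membrane protein (13571 and 31512, 2.32-fold), and CD82, a tetraspanin (120 and 253, 2.11-fold). The other probe set of CD82 stood at -0.03 and those of PERP at 0.85 and 0.09, while those of TNFRSF10D stood at 1.87 and 2.06. Of these 8 genes TNFRSF10D alone would be at least 2-fold higher with the hybridization controls level (1.26), and 5 of the 38 would be at least 2-fold lower, where 27.7% of all genes would be.

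Of 29 genes in the list of p53 and its regulators 26 were measured, 6 were at least 2-fold lower (23.1%, against 8.53% of all genes) and 1 at least 2-fold higher (3.85%, against 8.91%). Their median ratio was -0.27, or -0.88 with the hybridization controls level, with 11 above 0 and 15 below on the deposited scale. For 16 of the 26 the ratio was under the probe-set SD. The lower genes were the deacetylase SIRT1, which acts on p53 among other substrates (1543 and 328, 4.70-fold), the damage kinase ATR (1704 and 609, 2.80-fold, its other probe set at -1.72), the acetyltransferases EP300 (611 and 234, 2.61-fold) and CREBBP (1438 and 671, 2.14-fold), and the lysine methyltransferases SETD7 (5685 and 2445, 2.33-fold) and KMT5A (857 and 407, 2.11-fold). The other probe set of EP300 stood at -0.47 and those of KMT5A between -0.92 and -0.50, and with the mean of probe sets both genes were under 2-fold, at -0.93 and -0.77. CREBBP and KMT5A stood just short of 2-fold after loess, at -0.99 and -0.98. PPP1R13L, encoding the p53 inhibitor iASPP, was 2.04-fold higher (637 and 1298), and stood at 0.42 with the hybridization controls level. These regulators act on many proteins besides p53, and their place in any difference among the targets was not tested.

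**Figure D5:**
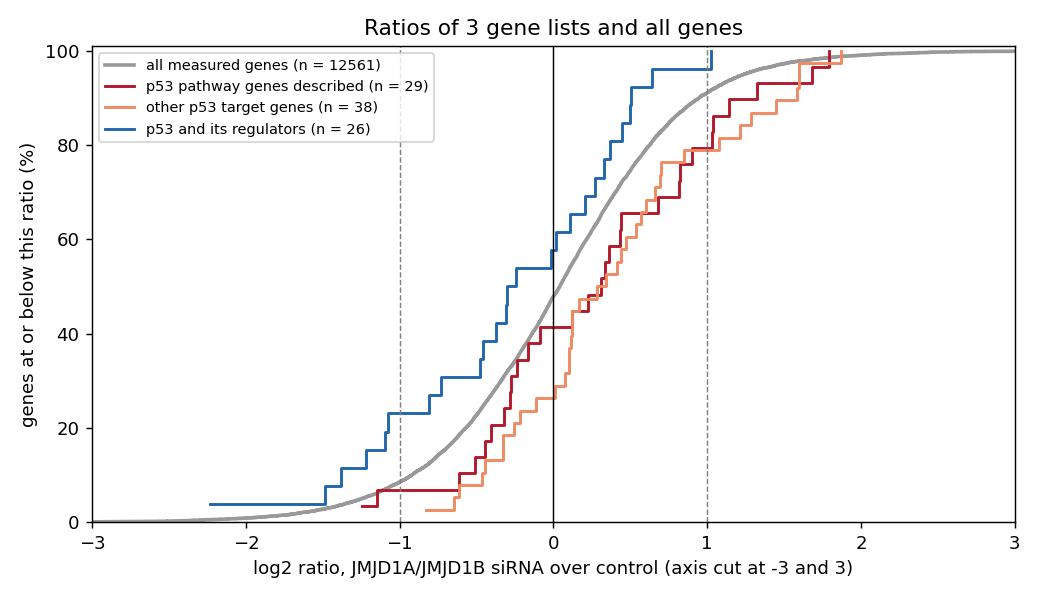
Cumulative share of genes by log2 ratio on the deposited scale for the 29 p53 pathway genes (red), 38 other p53 target genes (orange), 26 genes of p53 and its regulators (blue) and all 12561 measured genes (grey), with dashed lines at 2-fold. The red and orange curves share a median of 0.31, right of the grey one at 0.04, and the blue one has its median at -0.27; level on the hybridization controls all curves move left by 0.61.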

How the data were processed

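RNA from 1 control siRNA and 1 JMJD1A/JMJD1B siRNA culture of HCT116 cells was measured on single-channel arrays. The authors deposited linear signal intensity values per probe set, for which the submitters' processing notes name MAS5. Its version and settings are not given in the sources used here. Each array had a mean of 500.1 after trimming 2% at each end. Detection calls were not used. Of 54613 non-control probe sets, 41091 had 1 gene symbol in the platform annotation, 1801 several and 11721 none.

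Ratios were computed on the log2 scale, without a pseudocount. The named genes are all 33 members, the siRNA targets with JMJD1C, CDKN1A, and genes of the other p53 lists at least 2-fold different. The cell type markers named by value were chosen from their lists after the values were seen. Members and lists were chosen with earlier results of these data known. Alternatives were 4 scalings, pseudocounts of 16 and 50, 3 filters, 2 probe-set rules and thresholds of 1.5-fold and 3-fold. Loess used a span of 0.3. Python 3.11.15, numpy 2.4.6, pandas 2.3.3 and statsmodels 0.14.6 were used, and the procedure was tested on simulated data.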

Additional observations from a re-analysis of the deposited data

Results flagged for a closer look

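In data outside the gene comparison, 18 of 18 hybridization control probe sets read higher with the JMJD1A/JMJD1B siRNAs, with a median log2 ratio of 0.61 and a range of 0.40 to 0.71. Several probe sets report each of the few added transcripts, so these readings are not independent. The source of this difference was not tested.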

How the results depend on the processing

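No paired analysis was possible because each group had 1 array, and no replicate could be left out. Level on the hybridization controls, the median of the members turned from 0.31 to -0.30, the members at least 2-fold higher went from 6 to 2 and those lower from 2 to 6, the other p53 target genes from 8 to 1 higher and from 0 to 5 lower, and the regulators from 1 to 0 higher and from 6 to 10 lower. These moves follow from lowering every ratio by 1 shift, after which 2.15% of all genes were at least 2-fold higher and 27.7% lower. On the deposited scale those shares were 8.91% and 8.53%. With the mean of probe sets the members' median was 0.18 and 1 other target was at least 2-fold lower, and with no filter 1 other target was lower. At 1.5-fold 10 members were higher, and at 3-fold 2 were higher and 0 lower. Of 313 single-gene values under 11 alternatives, 280 moved by less than the probe-set SD and 33 by more, and no gene past 2-fold changed sign. Many of these values could not move, since the filters leave a gene's ratio as it is and the probe-set rules cannot alter a gene with 1 probe set. The shift of 0.61 was too small to turn a ratio past 2-fold, and it did turn 7 members with smaller ratios from above to below 0. The tally is thus no measure of robustness. Detection calls, which would tell dim probe sets from background, were not used.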
